A study of Mus musculus with 24 samples.

Results

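The DEAD and DEAH box helicases are enzymes that use ATP to unwind, clamp or remodel RNA. Members of the family were taken as all rows whose mouse symbol starts with Ddx or Dhx followed by a digit, which gave 52 genes in each count table, among 23845 rows for RNA and 20436 rows for ribosome footprints. Of these, 36 carry a Ddx symbol and 16 a Dhx symbol. A closely related pair of paralogs was not analysed here. After a filter on low counts, 50 helicases remained for RNA, 48 for ribosome-protected fragments (RPFs) and 48 for translational efficiency (TE), the number of RPFs relative to RNA.

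Each helicase of this kind carries the same core, in which a pair of recombinase-like domains closes around ATP and RNA. The family is named after a short stretch of that core, written in amino acid letters as DEAD or DEAH. DEAD box proteins mostly pry apart short duplexes or hold RNA in place, while DEAH box proteins pull themselves along a strand. Between them they take part in every stage of an mRNA's life, from transcription and splicing to export, translation and decay, and they are needed to assemble ribosomes. In neurons they are also known from granules that carry mRNAs into dendrites.

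RNA-seq and ribosome profiling were carried out on acute hippocampal slices of male WT and germline Tsc2+/- littermates aged 28 to 42 days on a C57BL/6J background, in which the Tsc2+/- allele had been made with CMV-Cre. Slices received ACSF vehicle or 100 µM DHPG, an agonist of group 1 metabotropic glutamate receptors, for 5 min, and all slices were then placed in cycloheximide, which holds ribosomes on mRNA. Slices were enriched for CA1 by the study's methods. The 24 libraries form 8 groups of 3, namely WT vehicle, WT DHPG, Tsc2+/- vehicle and Tsc2+/- DHPG for each assay, and each library came from pooled slices of more than 1 animal, so p-values measure the spread between these pools. Tsc2 is a brake on mTORC1, a kinase that promotes protein synthesis, so the questions were whether losing a copy of Tsc2, or stimulating the receptors, altered the RNA, footprints or TE of these helicases.

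The coding sequences show what the rule on symbols gathered. A search of the RefSeq coding sequence of each gene looked for in-frame codons of aspartate, glutamate, any residue, and aspartate or histidine, followed after 20 to 45 residues by the next motif of the helicase core. This pattern was present in 44 of the 52 helicases (84.6%) and in 0.346% of 20252 other genes. The third codon was for alanine in 24 helicases ending in aspartate and in 8 ending in histidine, which are the DEAD and DEAH boxes proper. The other boxes had valine before histidine (5 genes), valine before aspartate (2), cysteine before aspartate (2), isoleucine before histidine (2) or serine before aspartate (1). The 8 remaining genes, Ddx11, Ddx23, Ddx26b, Ddx28, Ddx51, Ddx58, Dhx32 and Dhx58, held the box codons without that second motif at this distance. For these genes the codons were sought anywhere in the coding sequence. How often other genes hold such codons alone was not counted, so the codons do not by themselves show a helicase core. Ddx26b is named Ints6l in RefSeq, a relative of an Integrator subunit that holds the symbol only.

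The windows of 30 bases printed next were chosen because they carry the box in the helicases on which the results turn, and in close paralogs for comparison. They are read 5′ to 3′ on the coding strand of GRCm38, and capitals mark the codons of the box. For Ddx28 these are its only box codons, found without the second motif.
Ddx5, chr11:106785184-106785213, minus strand: cttgtccttGATGAAGCTGATaggatgctt
Ddx17, chr15:79538866-79538895, minus strand: cttgtgttgGATGAGGCTGACcggatgctt
Ddx46, chr13:55660749-55660778, plus strand: gttgttttaGATGAAGCAGACagaatgttt
Ddx28, chr8:106010549-106010578, minus strand: atagtgctaGATGAAGTAGACacactgcta
Ddx39, chr8:83721101-83721130, plus strand: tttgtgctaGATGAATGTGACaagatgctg
Ddx39b, chr17:35247081-35247110, plus strand: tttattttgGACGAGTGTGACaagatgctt
Ddx21, chr10:62591872-62591901, minus strand: gttgtcctgGATGAAGTCGACcagatgttg
Ddx50, chr10:62640502-62640531, minus strand: gttgtgcttGATGAAGTAGATcaaatgtta
Dhx15, chr5:52171487-52171516, minus strand: ataattcttGATGAGGCCCATgaaagaaca
Dhx16, chr17:35885499-35885528, plus strand: gtgatggtgGATGAAGCTCACgagcggacc
Dhx35, chr2:158818266-158818295, plus strand: atcatgctgGATGAAGCCCACgagaggacc
Dhx9, chr1:153468880-153468909, minus strand: gttattgtgGATGAAATTCATgaaagagat
Dhx36, chr3:62493845-62493874, minus strand: attgtacttGATGAAATTCATgaaaggaat
In Ddx6 and Dhx29 the window is split by an intron, so the spliced sequences lie across chr9:44626468-44627652 and chr13:112948341-112952817, both on the plus strand.
Ddx6: atagtgctaGATGAGGCAGATaaattgttg
Dhx29: gtcattgtcGATGAGGTCCATgagagaagt
The paralogs Ddx5 and Ddx17, Ddx39 and Ddx39b, and Ddx21 and Ddx50 shared the box type within each pair. Their reads could be split between members by the counting, as could those of Ddx19a and Ddx19b, which end and start 5363 bases apart, and the values of these 8 genes are uncertain to that extent.

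Libraries held 14801679 to 24067838 counts for RNA and 5296006 to 13613673 for RPFs. The helicases took 0.237 to 0.257% of all RNA counts and 0.480 to 0.527% of all RPF counts. Tsc2 itself checks the genotype labels, with 193, 195 and 186 CPM (counts scaled to the library total) of RNA in the WT vehicle libraries and 136, 128 and 137 in the Tsc2+/- vehicle libraries, a log2 fold change of -0.52 ± 0.054 (± standard error, here and below), adjusted p = 2.03e-07. Markers of excitatory neurons summed to 11231 to 13212 CPM of RNA and markers of CA1 to 1884 to 2067. Blood markers summed to 1.21 to 15.0. Of all cell type markers tested, 1 blood marker was called in RNA and none in RPFs by edgeR at an adjusted p under 0.1. The called marker was lower in Tsc2+/- slices. Blood markers differed between genotypes in RNA, with 3 of 3 lower in Tsc2+/- in vehicle (median -1.204) and in DHPG (median -1.257). Their summed RNA was 10.02 to 11.70 CPM in WT vehicle and 1.21 to 8.06 in Tsc2+/- vehicle, without overlap. In DHPG the sums were 7.67 to 14.95 in WT and 2.50 to 8.16 in Tsc2+/-, which overlapped. The part of this difference in the results was not tested. In the RPF libraries of replicates 2 and 3, 97.9 to 98.5% of nonzero counts were even numbers, against 48.2 to 49.0% in replicate 1, and their part in the results was not tested beyond halving those counts. Since these are bulk samples, fewer cells of a type and less RNA per cell cannot be told apart.

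Levels were first compared between helicases in WT vehicle slices, per kilobase (kb) of transcript for RNA and per kb of coding sequence for RPFs. Ddx5, a coactivator of transcription that also acts in splicing and microRNA processing, was the most abundant on both scales, with 136 ± 5.54 CPM per kb of RNA and 1065 ± 61.5 CPM per kb of RPFs (mean ± SD, n = 3, as for the other levels). It stood at percentile 96.8 of all genes for RNA per kb and 99.2 for RPFs per kb. For RNA per kb it was followed by Ddx24, a nucleolar helicase (72.1 ± 0.656), Ddx39b, which loads the export machinery onto spliced mRNA (56.6 ± 1.64), Ddx1, part of the tRNA ligase complex (38.4 ± 1.62), and Ddx17, the paralog of Ddx5 (36.8 ± 0.759).

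For RPFs per kb the order behind Ddx5 was Ddx6, which represses mRNAs and promotes their decapping (248 ± 13.3), Ddx39b (173 ± 11.3), Ddx17 (119 ± 11.8) and Ddx1 (118 ± 5.72). Ddx17 and Ddx1 lay within each other's spread. These 5 helicases together held 66.5% of the family's RPFs per kb, and the 5 most abundant by RNA per kb held 45.3% of its RNA. Among the 48 helicases tested in both assays, the lowest RPF levels per kb belonged to Dhx16 (3.82 ± 0.566), Ddx31 (3.15 ± 0.668), Ddx4 (2.15 ± 0.931), Ddx58 (1.64 ± 0.222) and Dhx34 (1.47 ± 0.221). Of these, Ddx4 is the germ cell helicase known as vasa and Ddx58 the viral RNA sensor RIG-I. Among the same 48, the lowest RNA levels per kb were 2.69 ± 0.18 for Dhx34, 1.9 ± 0.103 for Ddx26b, 1.35 ± 0.194 for Ddx31, 0.733 ± 0.124 for Ddx58 and 0.708 ± 0.13 for Ddx4.

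Among 47 pairs of neighbours in the order of RPFs per kb, 34 had replicate ranges that overlapped, as did 32 of 47 in the order of RNA per kb, so close ranks are not told apart. Of the 52 genes, 4 stayed below the filter in an assay. Ddx43, a germ cell helicase, had at most 3 counts in any RNA library and 4 in any RPF library, and Ddx60, an antiviral factor, at most 8 and 6. Ddx11, a DNA helicase that acts in chromatid cohesion, and Dhx58, the antiviral helicase LGP2, were tested for RNA only and had at most 7 counts in any RPF library.

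**Figure D1:**
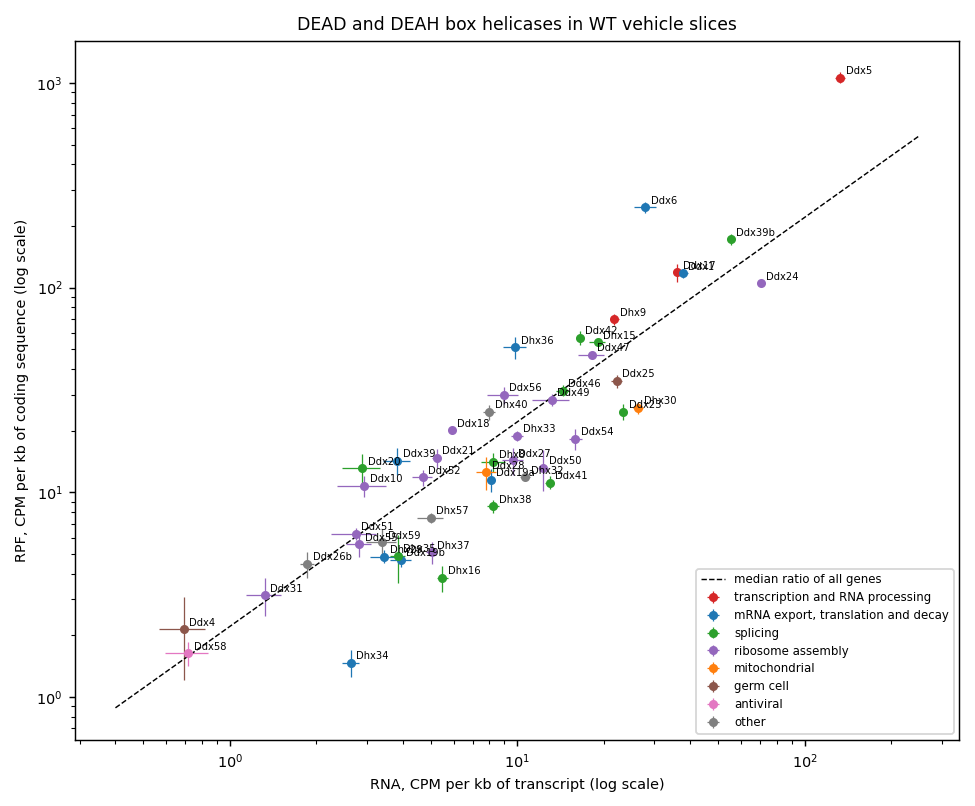
RPFs per kb of coding sequence (vertical log axis, CPM per kb) against RNA per kb of transcript (horizontal log axis, CPM per kb) for the 48 helicases tested in both assays, as mean and SD of 3 WT vehicle libraries, coloured by role. The dashed line is the median ratio of all genes, and Ddx5 and Ddx6 lie above it at the upper end while Dhx34 and Dhx16 lie below it.

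By role, the 3 helicases of transcription and RNA processing (Ddx5, Ddx17 and Dhx9) held 25.97% of the family's RNA per kb and 48.47% of its RPFs per kb. The 16 helicases of ribosome assembly held 25.8% of the RNA and 13.6% of the RPFs, and the 11 of splicing held 23.2% and 15.3%. The 8 assigned to mRNA export, translation and decay held 13.2% of the RNA and 17.5% of the RPFs. Each helicase was counted under a single role, although roles overlap. Ddx39b was counted with splicing, while its paralog Ddx39 and the tRNA ligase component Ddx1 were counted with the mRNA group. The shares depend on such assignments, since Ddx5, Ddx39b and Ddx1 are among the most abundant helicases. Ddx5, which also acts in splicing, had 1065 CPM per kb of RPFs, beside 119 for Ddx17. Its placement therefore sets most of the 48.47% of RPFs given to its role, and the order of the roles is not a result apart from it. The mitochondrial pair Ddx28 and Dhx30 held 4.65% and 1.49%.

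Baseline TE, the log2 ratio of RPFs per kb to RNA per kb in WT vehicle, had a median of 1.117 over the 48 helicases, beside 1.14 over 12493 genes, and 23 of the 48 lay above the median of all genes. The helicases ran from -0.85 to 3.15. The highest were Ddx6 (3.15 ± 0.20, percentile 96.8), Ddx5 (3.00 ± 0.14, percentile 95.8), Dhx36, which unwinds G-quadruplexes (2.37 ± 0.31), Ddx20, the Gemin3 subunit of the SMN complex (2.18 ± 0.43), and Ddx39 (1.89 ± 0.074). The lowest were Dhx37, a ribosome assembly factor (0.0053 ± 0.23), Dhx30 (-0.03 ± 0.094), Ddx41, a splicing helicase (-0.22 ± 0.10), Dhx16, which activates the assembled spliceosome (-0.54 ± 0.24), and Dhx34, a factor of nonsense-mediated decay (-0.85 ± 0.26, percentile 5.29).

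Only 2 of 47 neighbours in the order of baseline TE had replicate ranges that did not overlap, so ranks close to each other are not distinguished. The Ddx genes had a median baseline TE of 1.23 (33 genes) and the Dhx genes of 0.50 (15 genes), with median coding lengths of 1959 and 3438 bases. Across the 48 helicases, baseline TE had a Spearman correlation of -0.62 with the GC content of the coding sequence and -0.27 with its length, beside -0.46 and -0.35 across all genes. These are descriptions across genes of the same 6 libraries, and coding length enters TE as well. The order was kept between groups, with Spearman correlations of 0.960 to 0.972 for TE and at least 0.990 for RNA and RPFs between WT vehicle and each other group, and Ddx6, Ddx5, Dhx36 and Ddx20 led the order of TE in all 4 groups.

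**Figure D2:**
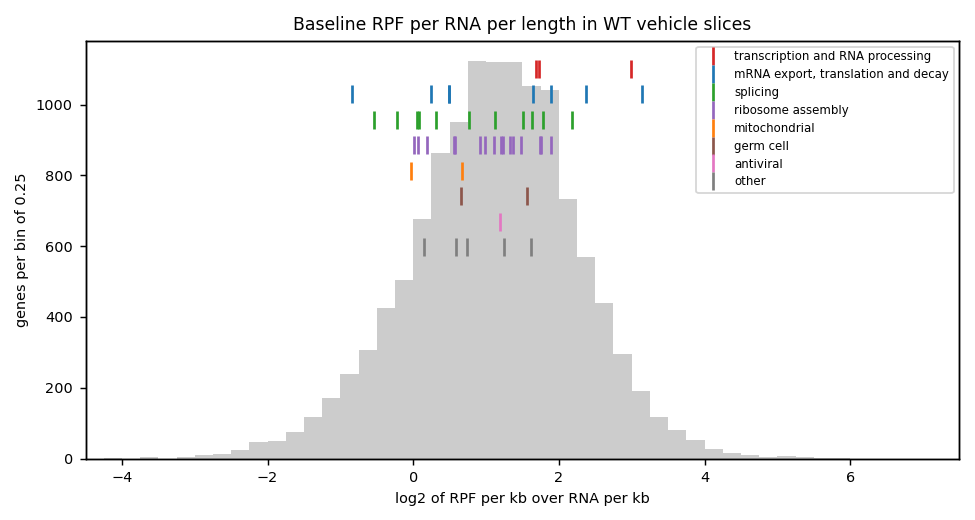
Distribution of baseline TE (log2 of RPFs per kb over RNA per kb, horizontal axis) in WT vehicle for all genes (grey bars, genes per bin of 0.25 on the vertical axis), with a tick for each of the 48 helicases in a row per role, placed by value only. The helicases run from -0.85 to 3.15 and their median of 1.117 lies close to the 1.14 of all genes.

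None of the helicases was called in any comparison. With the edgeR quasi-likelihood test and an adjusted p under 0.1, 0 of 50 were called for RNA in each of 7 comparisons, 0 of 48 for RPFs in each of 7 and 0 of 48 for TE in each of 5, and DESeq2 called 0 as well. Calls were rare in the background too. Of all genes tested for RNA, 0.0896% were called between genotypes in vehicle, 0.0482% between genotypes in DHPG, 0% for DHPG in WT, 0% for DHPG in Tsc2+/-, 0% for the interaction, 0.227% for genotype averaged over treatment and 0.0207% for DHPG averaged over genotype. For RPFs these shares were 0.0233, 0.0155, 0.0311, 0, 0, 0.0621 and 0.0311%. For TE they were 0% between genotypes in vehicle, 0% in DHPG, 0.0548% for DHPG in WT, 0% for DHPG in Tsc2+/- and 0% for the interaction. With shares of this size, a count of 0 among about 50 genes is no result about the helicases.

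The intervals show how large a change could have been missed. For RNA, the 95% confidence interval of the fold change lay within 1.5-fold in either direction for 46 of 50 helicases in each of the 4 simple comparisons, and within 2-fold for 48. For RPFs it lay within 1.5-fold for 41 to 43 of 48, and for TE for 34 to 37 of 48. The median standard error was 0.093 to 0.095 for RNA, 0.11 for RPFs and 0.145 for TE on the log2 scale. A p that misses the threshold does not show that a helicase was equal between groups.

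**Figure D3:**
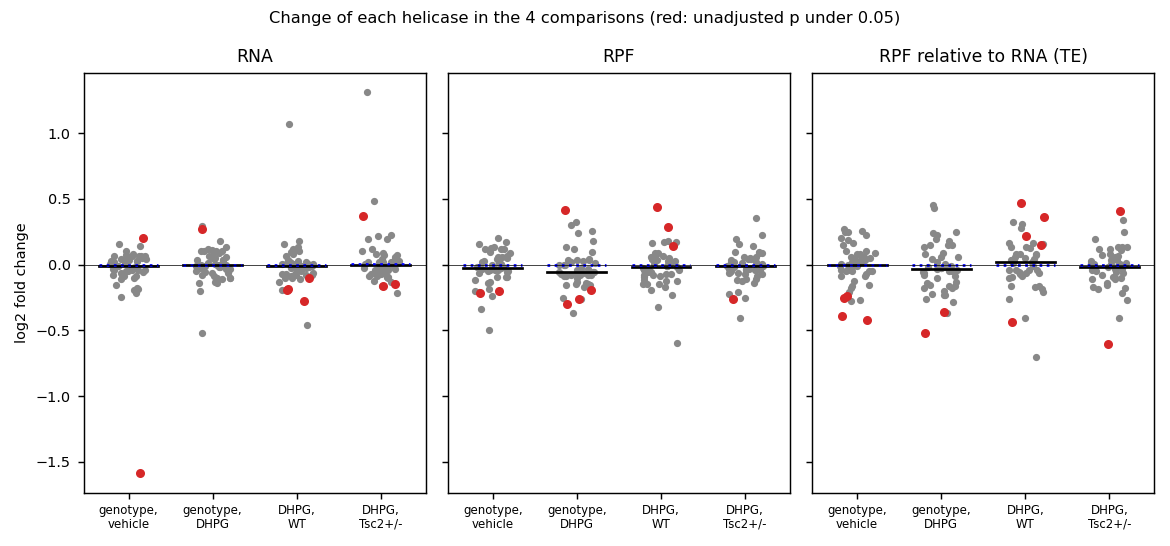
Log2 fold change (vertical axis) of each helicase in the 4 simple comparisons for RNA, RPFs and TE, with points spread sideways for legibility. Red points have an unadjusted p under 0.05, black lines are the medians of the helicases and dotted blue lines those of all genes, and most points lie close to 0, with Ddx11 in RNA the lowest at -1.59.

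Between genotypes in vehicle, no helicase passed the test for RNA. The median log2 fold change (Tsc2+/- over WT) was -0.014, beside -0.0021 over all genes, and 2 of 50 helicases (4%) had an unadjusted p under 0.05, beside 4.9% of all genes. Ddx11 had 8, 11 and 18 counts in the WT libraries and 1, 8 and 4 in the Tsc2+/- libraries, a log2 fold change of -1.59 ± 0.67 from very few reads. The Tsc2+/- libraries all lay below the WT libraries in CPM, and in DHPG the gene had 3, 5 and 19 counts in WT and 11, 8 and 14 in Tsc2+/-, where the groups overlapped.

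Dhx57 had 24.3, 28.4 and 23.5 CPM in WT and 28.1, 27.5 and 32.2 in Tsc2+/- (0.20 ± 0.096), with overlapping libraries. Dhx40 had 31.3, 29.5 and 28.5 CPM in WT and 28, 25.8 and 24.7 in Tsc2+/-, all of them lower (-0.18 ± 0.093). Of members that were higher in every same-numbered contrast, Dhx37 had 21.2, 21.6 and 19.8 CPM in WT and 23.8, 24.7 and 20.7 in Tsc2+/-, with overlap (0.14 ± 0.10). Dhx38, which remodels the spliceosome between its catalytic steps, had 37.9, 38 and 34.8 CPM in WT and 39.7, 39.7 and 39.3 in Tsc2+/-, all higher (0.10 ± 0.078). Without replicate 3 of WT vehicle its log2 fold change was 0.049. Adjusted p was at least 0.983 for every helicase in this comparison.

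For RPFs in vehicle, the smallest p-values belonged to Ddx46 and Ddx47. Ddx46, which lets the U2 snRNP bind the branch site of introns, had 88.7, 98.4 and 99.3 CPM in WT and 80.9, 83 and 85.4 in Tsc2+/- (-0.20 ± 0.08, unadjusted p = 0.0188, adjusted p = 0.667). Ddx47, which acts in the processing of pre-rRNA, had 59.1, 61.2 and 63.9 CPM in WT and 54.1, 55.2 and 48.9 in Tsc2+/- (-0.21 ± 0.087, adjusted p = 0.667). In both genes all 3 Tsc2+/- libraries lay below all 3 WT libraries.

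Their RNA overlapped between genotypes, with 87.2, 79.5 and 80.1 CPM in WT and 84.3, 87 and 82.2 in Tsc2+/- for Ddx46, and 31.6, 29.1 and 35.6 and 30.2, 35.3 and 33.2 for Ddx47. The same 2 genes had lower RPFs in the DHPG libraries. Ddx46 had 89, 91.9 and 82.1 CPM in WT and 82, 70.3 and 76.5 in Tsc2+/- (-0.20 ± 0.08). Its groups nearly met, at 82.1 in WT and 82 in Tsc2+/-. Ddx47 had 58.7, 60.8 and 62.1 CPM in WT and 51.9, 56.8 and 55 in Tsc2+/- (-0.15 ± 0.085), again without overlap. Averaged over treatment, the log2 fold change was -0.20 ± 0.057 for Ddx46 (unadjusted p = 0.00148, adjusted p = 0.516) and -0.18 ± 0.061 for Ddx47 (unadjusted p = 0.0052, adjusted p = 0.559). Neither passed the threshold, and the libraries of the 2 treatments are different libraries of the same genotypes.

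Over the 48 helicases the median RPF change in vehicle was -0.023, beside -0.0021 over all genes. An unadjusted p under 0.05 was reached by 2 (4.17%), beside 6.55% of all genes. Of the higher members, Dhx15, which takes the spliceosome apart, had 122, 123 and 132 CPM in WT and 137, 129 and 146 in Tsc2+/-, with overlap (0.13 ± 0.066). Dhx57 had 30.1, 29.4 and 32.7 CPM in WT and 34.9, 31.8 and 33.6 in Tsc2+/-, with overlap (0.13 ± 0.10). The 16 helicases of ribosome assembly had a median of -0.042, with 11 lower and 5 higher, and the 11 of splicing a median of -0.026.

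In DHPG the RPFs of the family leaned lower in Tsc2+/- slices. The median log2 fold change was -0.06, beside -0.0042 over all genes, with 32 of 48 helicases (66.7%) lower, beside 51.4% of all genes. In 19 of 48 (39.6%) all 3 same-numbered contrasts were lower, and in 5 (10.4%) all 3 were higher, beside 14.3 and 12.6% of all genes. The members share their libraries, so this lean was not tested as a set. Relative to all genes, the median was -0.023, -0.069 and -0.048 in the 3 same-numbered contrasts, and leaving out replicate 1 moved the fitted difference from -0.055 to -0.031. Markers of dentate granule cells (4 of 4 detected) were lower in the same comparison, with summed RPFs of 68.7 to 84.1 CPM in WT DHPG and 55.1 to 65.1 in Tsc2+/- DHPG and summed RNA of 60.2 to 69.7 and 45.5 to 51.7, without overlap, although none was called. Astrocyte markers were lower too (4 of 4, median -0.091). Their summed RPFs were 1801 to 2065 CPM in WT DHPG and 1862 to 1917 in Tsc2+/- DHPG, which overlapped. Lower RPF medians also held for markers of endothelial cells (2 of 3 lower, -0.118) and microglia (3 of 4, -0.041). RPFs of markers of excitatory neurons (5 of 5, median 0.016), CA1 (3 of 4, 0.022) and CA3 (3 of 3, 0.068) were higher. Between genotypes in vehicle the granule cell markers were lower as well, 4 of 4 in RNA (median -0.357) and in RPFs (median -0.339). Their summed ranges overlapped there, and the helicases had an RPF median of -0.023 in that comparison. Also in vehicle, oligodendrocyte markers were higher, 4 of 4 in RNA (median 0.142) and in RPFs (median 0.133). CA3 markers were higher there in RPFs (3 of 3, median 0.125). Markers of excitatory neurons (5 of 5, median -0.051), CA1 (4 of 4, -0.075) and endothelial cells (3 of 3, -0.194) had lower RPFs in vehicle. The part of any of these lists in the result was not tested. An unadjusted p under 0.05 was reached by 4 (8.33%), beside 4.13% of all genes, and the smallest adjusted p of a helicase was 0.9995.

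Among them was Ddx54, a helicase of large-subunit assembly, with 41.3, 42.5 and 46.1 CPM in WT DHPG and 38.7, 27.7 and 41.1 in Tsc2+/- DHPG (-0.27 ± 0.11). All Tsc2+/- values were lower, although the highest nearly met the lowest of WT. Ddx28, which assembles the mitochondrial ribosome, had 25, 26.4 and 29.1 CPM and 21.7, 21.3 and 22 (-0.30 ± 0.13), also without overlap. Ddx55, another helicase of the large subunit, went the other way, with 9.76, 8.31 and 6.59 CPM in WT and 9.99, 9.72 and 12.7 in Tsc2+/- (0.41 ± 0.19), and its groups overlapped. Without replicate 3 of Tsc2+/- DHPG the value was 0.12. Ddx42, a splicing helicase, had 136, 146 and 146 CPM in WT and 169.9, 150.3 and 147 in Tsc2+/-, all higher (0.13 ± 0.072), and 0.023 without replicate 1 of Tsc2+/- DHPG. Without replicate 2 of Tsc2+/- DHPG, the log2 fold change was -0.16 for Ddx54 and -0.12 for Ddx46.

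**Figure D4:**
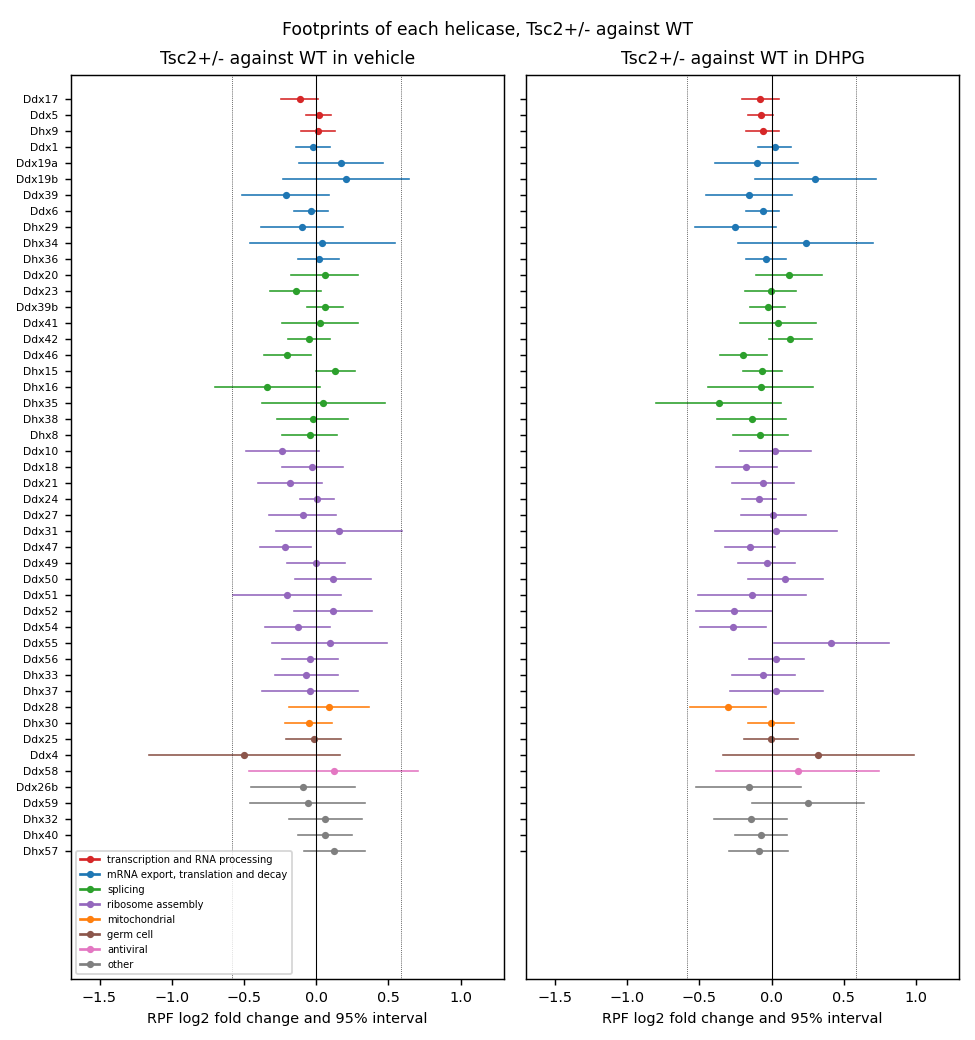
RPF log2 fold change of Tsc2+/- over WT (horizontal axis) with its 95% interval for each of the 48 helicases in vehicle (left) and in DHPG (right), coloured by role, with dotted lines at 1.5-fold. Most intervals cross 0, while Ddx46 lies below 0 in both panels (-0.20 and -0.20).

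The RNA of the family in DHPG had a median genotype difference of -0.0053, beside -0.00026 over all genes, and 1 of 50 helicases (2%) had an unadjusted p under 0.05, beside 4.64% of all genes. This was Dhx29, which helps ribosomes scan structured leaders of mRNAs. Its RNA was 12.3, 13.8 and 11.8 CPM in WT DHPG and 15.5, 14.1 and 15.9 in Tsc2+/- DHPG, all higher (0.27 ± 0.12, adjusted p = 0.9970). Its RPFs were 19.5, 21.5 and 19.8 CPM in WT and 18.9, 14.2 and 17.5 in Tsc2+/-, all lower (-0.25 ± 0.14).

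The differences of Dhx29 in the 2 assays had opposite signs, and RPFs per RNA were 1.59, 1.56 and 1.67 in WT DHPG and 1.22, 1.01 and 1.1 in Tsc2+/- DHPG. This was the lowest p of any helicase for TE between genotypes in DHPG (-0.52 ± 0.18, unadjusted p = 0.00639, adjusted p = 0.9997). In vehicle the ratios overlapped, at 1.24, 1.21 and 1.4 in WT and 1.52, 1.04 and 1.37 in Tsc2+/-. A pseudogene on the same strand overlaps 515 bases of Dhx29.

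For RNA in the same comparison, Ddx25, a helicase best known from testis, had 37.6, 36.1 and 38 CPM in WT and 38.8, 40.4 and 40.9 in Tsc2+/-, all higher (0.10 ± 0.077). Ddx27, a ribosome assembly factor, had 26.6, 27.8 and 25.9 CPM in WT and 23.1, 25.9 and 24.3 in Tsc2+/-, all lower (-0.13 ± 0.091). Dhx30, which assembles mitochondrial ribosomes, had 95.1, 104 and 102 CPM in WT and 94.2, 93.2 and 96.2 in Tsc2+/-, with overlap (-0.088 ± 0.062).

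For TE in DHPG the median was -0.038, beside -0.0018 over all genes, and 2 of 48 (4.17%) had an unadjusted p under 0.05, beside 3.03% of all genes. The second was Ddx52, which acts on the small subunit, with 1.79, 1.61 and 1.82 RPFs per RNA in WT and 1.21, 1.04 and 1.78 in Tsc2+/- (-0.36 ± 0.17), where the groups overlapped. Of the higher members, Ddx55 had 1.05, 0.955 and 0.756 RPFs per RNA in WT and 1.16, 0.964 and 1.71 in Tsc2+/-, with overlap (0.45 ± 0.25), and 0.063 without replicate 3 of Tsc2+/- DHPG. Ddx42 had 1.99, 2.37 and 2.43 RPFs per RNA in WT and 2.44, 2.5 and 2.46 in Tsc2+/-, all higher (0.14 ± 0.10), and 0.068 without replicate 1 of WT DHPG.

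In vehicle the median TE difference between genotypes was -2.04e-05, beside -0.00064 over all genes, and 4 of 48 helicases (8.33%), all lower in Tsc2+/-, had an unadjusted p under 0.05, beside 5.76% of all genes. Ddx46 had 1.02, 1.24 and 1.24 RPFs per RNA in WT and 0.96, 0.954 and 1.04 in Tsc2+/- (-0.24 ± 0.10), with overlap. Dhx16 had 0.733, 0.634 and 0.527 in WT and 0.506, 0.403 and 0.518 in Tsc2+/-, all lower (-0.42 ± 0.20). Ddx10, a nucleolar helicase, had 2.67, 3.28 and 2.56 in WT and 2.09, 2.12 and 2.18 in Tsc2+/-, all lower (-0.39 ± 0.19).

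Ddx47 was the other of the 4, with 1.87, 2.11 and 1.79 RPFs per RNA in WT and 1.79, 1.56 and 1.47 in Tsc2+/-, all lower (-0.25 ± 0.12). Of the higher members, Dhx40 had 1.63, 1.94 and 2.12 RPFs per RNA in WT and 2.05, 2.49 and 2.14 in Tsc2+/-, with overlap (0.25 ± 0.13). Ddx19b, an mRNA export factor, had 0.217, 0.297 and 0.264 RPFs per RNA in WT and 0.278, 0.386 and 0.27 in Tsc2+/-, with overlap (0.26 ± 0.21). Adjusted p was at least 0.863 for every helicase. In DHPG, Ddx10 had 2.33, 2.64 and 2.26 RPFs per RNA in WT and 2.71, 2.37 and 3.4 in Tsc2+/-, with overlap.

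After 5 min of DHPG in WT slices, 30 of 50 helicases (60%) had lower RNA, beside 50.5% of all genes. The median log2 fold change (DHPG over vehicle) was -0.015, beside -0.0016 over all genes, and all 3 same-numbered contrasts were lower for 12 of 50 (24%) and higher for 1 (2%), beside 13.7 and 13.9% of all genes. Markers of astrocytes (4 of 4), excitatory neurons (4 of 5), oligodendrocytes (3 of 4) and dentate granule cells (4 of 4) were mostly higher in RNA in this comparison, with medians of 0.070, 0.049, 0.064 and 0.089. Their summed RNA was 1494 to 1702 CPM in WT vehicle and 1644 to 1705 in WT DHPG for astrocytes, 11231 to 12219.5 and 12066 to 12561 for neurons, 4249.6 to 4991 and 4638 to 5213 for oligodendrocytes and 54.0 to 73.9 and 60.2 to 69.7 for granule cells. All these ranges overlapped, and the part of these lists in the result was not tested. An unadjusted p under 0.05 was reached by 4 (8%), all lower, beside 6.45% of all genes. Ddx5 had 512, 471 and 491 CPM in vehicle and 474, 445 and 456 in DHPG (-0.099 ± 0.048, adjusted p = 0.768), with the highest DHPG value above the lowest of vehicle, and the change was -0.032 once the trend of each library with GC content and length was removed.

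Dhx29 had 14.6, 17.2 and 14.2 CPM in vehicle and 12.3, 13.8 and 11.8 in DHPG (-0.28 ± 0.12). Dhx40 had 31.3, 29.5 and 28.5 and 25.5, 26 and 26.3 (-0.19 ± 0.094). Ddx50, a nucleolar paralog of Ddx21, had 33.9, 35.4 and 32.5 and 30.4, 31.3 and 28 (-0.18 ± 0.091). In these 3 genes every DHPG library lay below every vehicle library. The higher member was Dhx58, with 3, 11 and 6 counts in vehicle and 15, 14 and 7 in DHPG (1.07 ± 0.65), too few reads to place it.

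In Tsc2+/- slices DHPG gave a median RNA change of -0.0047, beside 0.00028 over all genes, and 3 of 50 helicases (6%) had an unadjusted p under 0.05, beside 4.32% of all genes. Ddx23, which hands the 5′ splice site from U1 to U6, had 66.3, 66.6 and 67 CPM in vehicle and 60.2, 60.8 and 59.6 in DHPG, all lower (-0.15 ± 0.064). The same gene had 65.3, 66.1 and 65.7 CPM in WT vehicle and 59.5, 62.3 and 61.4 in WT DHPG, all lower too (-0.10 ± 0.065). Averaged over genotype its change was -0.13 ± 0.045 (unadjusted p = 0.00893, adjusted p = 0.539).

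Dhx15 had 56.5, 61.6 and 53.8 CPM in Tsc2+/- vehicle and 50.3, 53.4 and 50.2 in Tsc2+/- DHPG, all lower (-0.16 ± 0.075). Without replicate 2 of Tsc2+/- vehicle its log2 fold change was -0.0747. Ddx39, an export helicase and paralog of Ddx39b, had 5.24, 5.55 and 6.27 CPM and 8.2, 7.88 and 5.98 (0.37 ± 0.17), with overlap, and 3660 bases of it lie opposite Adgre5. Ddx5 had 465, 485 and 464 CPM in vehicle and 454, 446 and 427 in DHPG, all lower (-0.092 ± 0.048), and averaged over genotype -0.096 ± 0.034 (unadjusted p = 0.00758, adjusted p = 0.539). Of the higher members, Ddx55 had 8.11, 7.83 and 6.41 CPM in vehicle and 8.64, 10.1 and 7.45 in DHPG, with overlap (0.23 ± 0.15). Ddx11, with the counts given before, was at 1.31 ± 0.68.

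The family's share of all RNA counts was 0.257, 0.251 and 0.257% in WT vehicle, 0.245, 0.244 and 0.244% in WT DHPG, 0.246, 0.254 and 0.245% in Tsc2+/- vehicle and 0.244, 0.241 and 0.237% in Tsc2+/- DHPG. In each genotype the DHPG libraries held the smaller RNA share, but in Tsc2+/- the ranges nearly met, at 0.2447% in vehicle and 0.2444% in DHPG. This share weighs abundant genes such as Ddx5 most, and in Tsc2+/- 25 of 50 helicases were lower. The shares of RPF counts overlapped, at 0.490 to 0.520% in WT vehicle and 0.5065 to 0.527% in WT DHPG. In Tsc2+/- they were 0.490 to 0.513% in vehicle and 0.480 to 0.506% in DHPG.

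For RPFs after DHPG in WT the median change was -0.017, beside -0.0019 over all genes, and 3 of 48 helicases (6.25%), all higher, had an unadjusted p under 0.05, beside 6.71% of all genes. Ddx28 had 22.6, 20.6 and 15.6 CPM in vehicle and 25, 26.4 and 29.1 in DHPG, all higher (0.43 ± 0.13, unadjusted p = 0.00234, adjusted p = 0.48), and the value was 0.29 without replicate 3 of WT vehicle. In Tsc2+/- slices the same gene had 19.4, 23.1 and 20.9 CPM in vehicle and 21.7, 21.3 and 22 in DHPG, which overlapped (0.047 ± 0.13). The test of that difference between genotypes gave an interaction of -0.39 ± 0.19 (unadjusted p = 0.0471, adjusted p = 0.9981), so the 2 responses were not shown to differ.

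Ddx52 had 18.3, 21.8 and 21.3 CPM in WT vehicle and 23.2, 25.4 and 26.9 in WT DHPG, all higher (0.29 ± 0.13), and Dhx15 had 122, 123 and 132 and 132, 137 and 148, also all higher (0.14 ± 0.065). The lower members were Ddx4, with 25, 28 and 36 counts in vehicle and 35, 22 and 28 in DHPG (-0.60 ± 0.32), and Dhx16, with 13.6, 11.3 and 10.3 CPM and 11, 8.31 and 9.12 (-0.32 ± 0.17), where the groups overlapped. The value of Ddx4 was -0.24 without replicate 3 of WT vehicle, and that of Dhx16 was -0.21 without replicate 2 of WT vehicle.

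In Tsc2+/- slices the median RPF change after DHPG was -0.015, beside -0.00055 over all genes, and 1 of 48 (2.08%) had an unadjusted p under 0.05, beside 4.03% of all genes. This was Ddx54, with 38.6, 39.8 and 52.1 CPM in vehicle and 38.7, 27.7 and 41.1 in DHPG (-0.26 ± 0.11), and its groups overlapped. Of the higher members, Dhx34 had 4.63, 5.83 and 5.01 CPM in vehicle and 5.3, 8.6 and 6.14 in DHPG, with overlap (0.36 ± 0.24). Ddx21, a nucleolar helicase that links rRNA transcription and processing, had 32.8, 31.6 and 32.7 CPM in vehicle and 37.1, 32.2 and 33.3 in DHPG, with overlap (0.084 ± 0.11). The sign of Ddx21 turned, to -0.017, without replicate 1 of Tsc2+/- DHPG. Of the lower members, Dhx35, a component of the spliceosome, had 9.45, 11.7 and 10.6 CPM in vehicle and 8.88, 4.86 and 9.21 in DHPG, all lower (-0.41 ± 0.22), and -0.12 without replicate 2 of Tsc2+/- DHPG. Ddx19a, an mRNA export factor, had 16.3, 19.1 and 17.7 CPM in vehicle and 14.7, 17.2 and 14.2 in DHPG, with overlap (-0.21 ± 0.14).

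**Figure D5:**
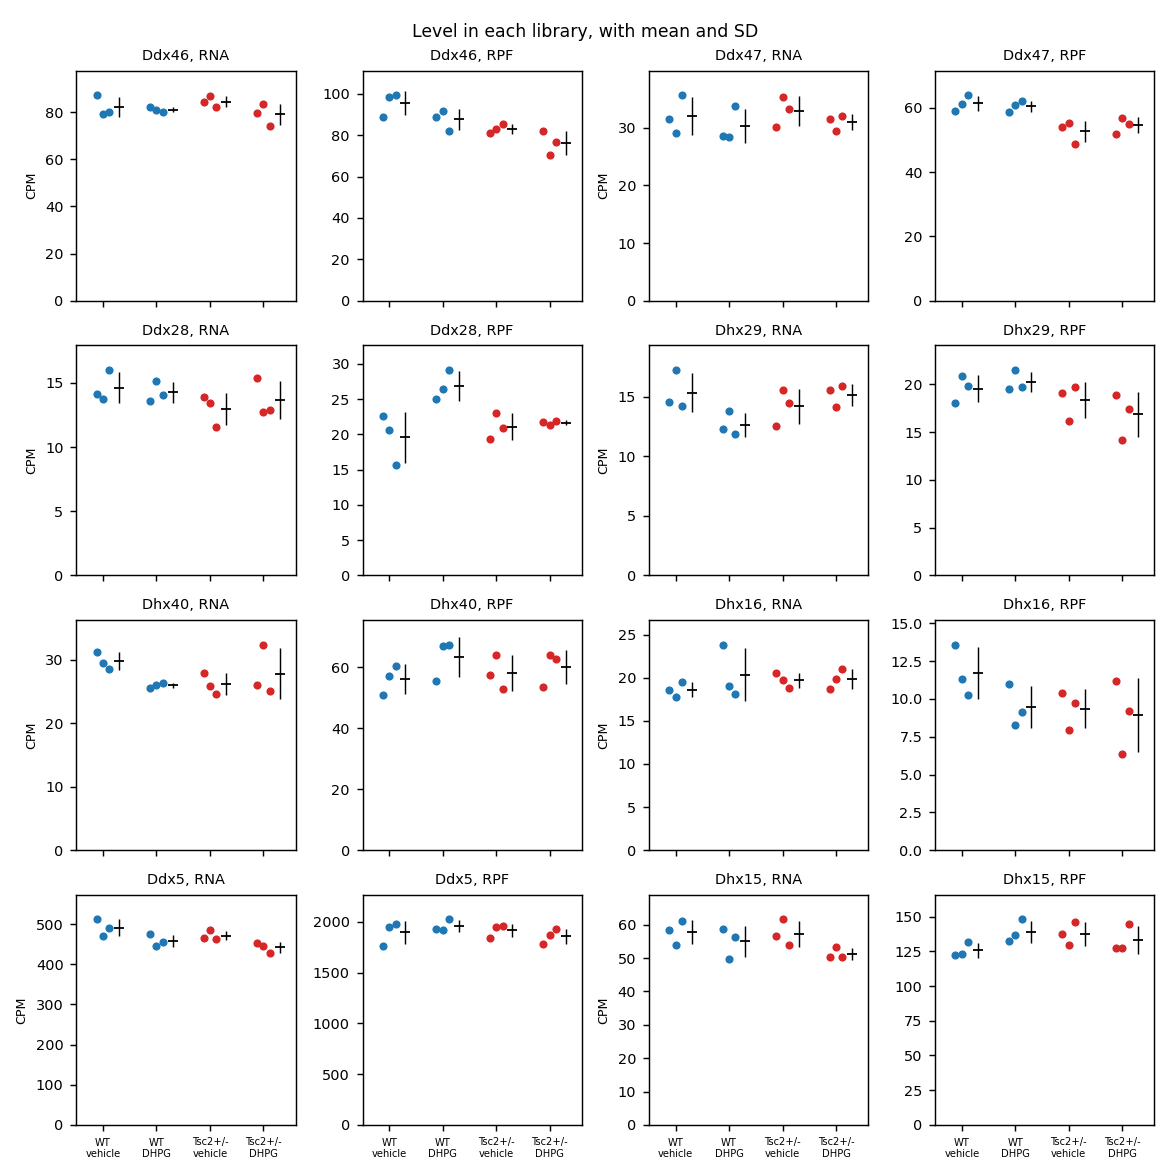
RNA and RPF level (vertical axes from 0, CPM) of 8 helicases in each library of WT (blue) and Tsc2+/- (red) slices, with the mean and SD (n = 3) beside each group. Ddx46 and Ddx47 have lower RPFs in the Tsc2+/- libraries of both treatments, and Ddx28 has its highest RPFs in WT DHPG (25, 26.4 and 29.1 CPM).

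TE after DHPG in WT had a median change of 0.023, beside -0.00036 over all genes, and all 3 same-numbered contrasts were higher for 12 of 48 helicases (25%) and lower for 6 (12.5%), beside 14.2 and 13.5% of all genes. An unadjusted p under 0.05 was reached by 5 (10.4%), beside 9.06% of all genes. Dhx40, a DEAH box protein of little known function, had 1.63, 1.94 and 2.12 RPFs per RNA in vehicle and 2.18, 2.58 and 2.56 in DHPG, all higher (0.36 ± 0.13, unadjusted p = 0.00765, adjusted p = 0.351). In Tsc2+/- the ratios were 2.05, 2.49 and 2.14 and 2.07, 1.98 and 2.51, which overlapped.

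Ddx28 had 1.6, 1.5 and 0.975 RPFs per RNA in WT vehicle and 1.85, 1.74 and 2.07 in WT DHPG, all higher (0.47 ± 0.18), and the value was 0.21 without replicate 3 of WT vehicle. Ddx5 had 3.46, 4.14 and 4.03 and 4.07, 4.33 and 4.44 (0.15 ± 0.063), with overlap, and Dhx15 2.09, 2.28 and 2.15 and 2.25, 2.74 and 2.63 (0.21 ± 0.10), with overlap. Dhx16 moved the other way, at 0.733, 0.634 and 0.527 and 0.462, 0.436 and 0.504, all lower (-0.44 ± 0.19). Ddx55 had 1.4, 1.37 and 0.961 RPFs per RNA in vehicle and 1.05, 0.955 and 0.756 in DHPG, with overlap (-0.41 ± 0.25). Dhx16 in WT vehicle enters this value and its difference between genotypes, so these are not separate observations. The same holds for Ddx28 and Dhx29 in WT DHPG, Dhx40 in WT vehicle and Ddx10 in Tsc2+/- vehicle. More generally, comparisons that share a group share its libraries, and the interactions draw on the same libraries again.

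In Tsc2+/- slices the median TE change after DHPG was -0.019, beside -0.00036 over all genes, and 2 of 48 (4.17%) had an unadjusted p under 0.05, beside 3.65% of all genes. Ddx10 was higher, from 2.09, 2.12 and 2.18 RPFs per RNA in vehicle to 2.71, 2.37 and 3.4 in DHPG, without overlap (0.41 ± 0.19), and the value was 0.23 without replicate 3 of Tsc2+/- DHPG. Dhx35 was lower, from 0.78, 1.01 and 1.08 to 0.564, 0.388 and 0.907, with overlap (-0.60 ± 0.25), and the value was -0.31 without replicate 2 of Tsc2+/- DHPG. Ddx21 had 1.33, 1.2 and 1.31 RPFs per RNA in vehicle and 1.63, 1.26 and 1.7 in DHPG, with overlap (0.25 ± 0.15). Ddx19a had 0.66, 0.916 and 0.865 RPFs per RNA in vehicle and 0.608, 0.704 and 0.712 in DHPG, with overlap (-0.27 ± 0.17).

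The interaction, which asks whether DHPG acted differently in the 2 genotypes, gave an unadjusted p under 0.05 for 2 of 50 helicases in RNA (4%), 3 of 48 in RPFs (6.25%) and 3 of 48 in TE (6.25%), beside 3.47, 3.81 and 4.06% of all genes. For RNA these were Dhx29 (0.38 ± 0.17) and Dhx40 (0.28 ± 0.13), and for RPFs Ddx28, Ddx52 (-0.38 ± 0.18) and Dhx15 (-0.19 ± 0.093). For TE they were Ddx10 (0.62 ± 0.26), Dhx29 (-0.54 ± 0.26) and Dhx40 (-0.41 ± 0.18). The smallest adjusted p of any helicase was 0.998 for the interaction, over the 3 measures.

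Tsc2 lies on chromosome 17 at 24.6 Mb, and 4 helicases lie on the same chromosome, Ddx39b at 10.6 Mb from it, Dhx16 at 11.3 Mb, Ddx11 at 41.5 Mb and Dhx57 at 55.6 Mb (GRCm38). Of these, Ddx11 and Dhx57 had an unadjusted p under 0.05 for RNA between genotypes in vehicle, beside 4.9% of all genes. Dhx16 had it for TE, beside 5.76% of all genes. Ddx11 had only 1 to 18 counts in the vehicle libraries. In DHPG its mean RNA was not lower in Tsc2+/-, at 0.458 CPM in WT and 0.497 in Tsc2+/-. Ddx39b had 93.2, 98.3 and 97.4 CPM of RNA in WT vehicle and 90.0, 89.3 and 89.6 in Tsc2+/- vehicle (-0.10 ± 0.061). Sequence linked to the targeted allele and the lost copy of Tsc2 cannot be told apart in this design.

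Libraries of the same replicate number also shared deviations. Over the 3 numbers, averaged over the 4 groups, the median range of a helicase was 0.10 for RNA, 0.11 for RPFs and 0.15 for TE on the log2 scale, beside 0.13, 0.17 and 0.19 for all genes. The widest range was 0.90 for Ddx11 in RNA and 0.46 for Dhx16 in RPFs.

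Other RNA helicases bear names outside the Ddx and Dhx series. Of a list of 20, which holds the eIF4A translation helicases, the decay factor Upf1, the exosome helicases and the viral sensor Ifih1, 19 were tested for RNA and 17 for RPFs and TE, and 0 were called in any comparison by edgeR. In RNA, 5 of 19 had an unadjusted p under 0.05 between genotypes in DHPG, beside 4.64% of all genes, and 0 or 1 of 19 in the other 3 simple comparisons, beside 4.32 to 6.45%. In RPFs 0 of 17 did in the 4 simple comparisons, beside 4.03 to 6.71% of all genes, and in TE 0 or 1 of 17, beside 3.03 to 9.06%. In the RNA comparison between genotypes in DHPG Supv3l1, of the mitochondrial degradosome, was lower in Tsc2+/- slices (-0.28 ± 0.11). Mov10, which acts with Argonaute, had 4.9, 5.01 and 6.14 CPM in Tsc2+/- vehicle and 6.7, 8.21 and 7.85 in Tsc2+/- DHPG (0.50 ± 0.17, unadjusted p = 0.00515, adjusted p = 0.9998). Eif4a2, a helicase of the cap-binding complex, was at -0.12 ± 0.05 in RNA for DHPG in WT and at 0.084 ± 0.055 in RPFs between genotypes in vehicle.

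For the same list, further RNA differences with the smallest p in a direction were 0.066 ± 0.079 for Skiv2l2 and -0.11 ± 0.074 for Upf1 between genotypes in vehicle, 0.64 ± 0.39 for Ifih1 after DHPG in WT and -0.14 ± 0.079 for Skiv2l2 after DHPG in Tsc2+/-. In RPFs they were -0.46 ± 0.38 for Ifih1 between genotypes in vehicle, 0.22 ± 0.17 for Ighmbp2 and -0.056 ± 0.059 for Snrnp200 between genotypes in DHPG, 0.20 ± 0.13 for Helz and -0.11 ± 0.086 for Skiv2l after DHPG in WT, and 0.12 ± 0.12 for Znfx1 and -0.096 ± 0.068 for Upf1 after DHPG in Tsc2+/-.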

How the data were processed

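RNA-seq and ribosome profiling libraries were analysed from gene-level tables. The deposited values are expected counts, which the authors obtained with RSEM after trimming, removal of rRNA and tRNA reads, alignment to mm10 and collapse of duplicates by molecular identifiers. RNA was counted over whole transcripts and RPFs over coding sequences with the ends left out. Whether counting used strand is not given in the sources used here. The authors deposited them as whole numbers, which were used as they stand. Columns matched no library of another series (0 unmatched columns).

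Genes were filtered with filterByExpr (minimum count 10), scaled by TMM and tested with the edgeR 4.0.16 quasi-likelihood test in R 4.3.3, using all 12 libraries of an assay and terms for group and for replicate number. For TE, 24 libraries entered a single fit and the assay-by-group interaction was tested. Adjusted p (Benjamini-Hochberg) covers all genes tested, with 0.1 as threshold. Alternatives used DESeq2 1.42.0 and sva 3.50.0, other scaling, filters and left-out libraries. The procedure was checked on simulated data with 200 changed genes, changes of at least 1 on the log2 scale and no replicate effect. Most differences described here are smaller, so recovery of changes of their size was not checked. Named helicases were up to 2 per direction and comparison that moved the same way in all 3 same-numbered contrasts, by smallest p, and the 5 highest and lowest by level, while other helicases with an unadjusted p under 0.05 were chosen after their values were seen. The members and gene lists were chosen with earlier results of these data known. Some values that this rule names are not reported here.

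Levels per kb used RefSeq lengths on GRCm38, with 30 coding bases left out at each end. Depth was 14801679 to 24067838 counts per library for RNA and 5296006 to 13613673 for RPFs, and the biological coefficient of variation was 7.01% and 7.04%.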

Additional observations from a re-analysis of the deposited data

How the results depend on the processing

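No helicase was called under any of 442 alternative counts over 25 settings. Besides these counts, only the medians and the helicase values named by smallest p in a direction were rerun. Those helicase values kept their direction and side of the threshold, except that Ddx21 RPFs after DHPG in Tsc2+/- changed direction. The medians were judged by the size of their shift, and some ranges below include both signs. Other single values, such as the interactions, the partners and the other RNA helicases, were not rerun. Medians of the helicases relative to all genes moved by more than the spread between replicates only when libraries were left out. The range was -0.064 to -0.031 for RPFs between genotypes in DHPG, -0.046 to -0.0080 for RNA and -0.037 to -0.0066 for RPFs after DHPG in WT, -0.041 to 0.035 for TE between genotypes in vehicle, and -0.091 to 0.017 for baseline TE. Other values also leaned on a single library. Ddx19b TE between genotypes in vehicle was 0.097 without replicate 2 of Tsc2+/- vehicle. Without replicate 2 of Tsc2+/- DHPG, the changes after DHPG in Tsc2+/- were 0.20 for Dhx34 RPFs and 0.093 for Ddx55 RNA. Ddx21 RPFs after DHPG in Tsc2+/- ranged from -0.017, without replicate 1 of Tsc2+/- DHPG, to 0.14. The cause was not tested.

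Without the replicate block 0 helicases were called, and the count over all genes for RNA between genotypes, averaged over treatment, went from 33 to 16. Same-numbered libraries had correlated deviations of 0.0228 to 0.143 in RNA and 0.0330 to 0.263 in RPFs, so not every pair passed 0.1. DESeq2 called 99 genes for TE after DHPG in WT against 7 with edgeR, 26 against 3 for RNA after DHPG averaged over genotype, 14 against 4 for RPFs after DHPG in WT, 15 against 4 for RPFs after DHPG averaged over genotype, and 10 against 3 for RPFs between genotypes in vehicle. Depth limits Ddx11, Dhx58, Ddx43 and Ddx60, which had few counts.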

Other observations

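Proteins that work with these helicases were described in the same way. Of a list of 45 partners, which holds subunits of the THO export complex, the decapping machinery, the SMN complex, Drosha and its cofactor, the tRNA ligase complex and activating G-patch proteins, all 45 were tested in RNA, RPFs and TE and 0 were called by edgeR. Over the 4 simple comparisons, an unadjusted p under 0.05 was reached at most by 4 of 45 in RNA (between genotypes in DHPG), beside 4.64% of all genes, by 3 in RPFs (between genotypes in vehicle), beside 6.55%, and by 4 in TE (DHPG in WT), beside 9.06%. Dgcr8, the partner of Drosha in microRNA processing, had 19.5, 20.6 and 23.6 CPM of RPFs in WT vehicle and 25.4, 25.2 and 28.6 in Tsc2+/- vehicle (0.32 ± 0.13, adjusted p = 0.667). Utp14a, of the small-subunit processome, had 24.9, 22.8 and 25.1 and 17.8, 20.4 and 23.3 (-0.26 ± 0.12).

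After DHPG, Gemin4, a partner of Ddx20 in the SMN complex, had 17.4, 22.5 and 20.3 CPM of RPFs in Tsc2+/- vehicle and 15.4, 16.1 and 13.5 in Tsc2+/- DHPG (-0.42 ± 0.14, unadjusted p = 0.00576, adjusted p = 0.9999). Nup214, the pore protein to which the export helicase Ddx19b binds, was higher in RNA for DHPG in WT (0.16 ± 0.07), and Gemin7 was lower (-0.26 ± 0.13). None of these passed the threshold.

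The other partners with the smallest p in a direction were, in RNA, 0.15 ± 0.074 for Edc4 and -0.34 ± 0.19 for Zbtb8os between genotypes in vehicle, 0.25 ± 0.12 for Thoc2 and -0.23 ± 0.11 for Edc3 between genotypes in DHPG, and 0.08 ± 0.053 for Drosha and -0.44 ± 0.22 for Thoc6 after DHPG in Tsc2+/-. In RPFs they were 0.093 ± 0.078 for Edc4 and -0.39 ± 0.23 for Thoc6 between genotypes in DHPG, 0.35 ± 0.19 for Gemin7 and -0.20 ± 0.13 for Eif4enif1 after DHPG in WT, and 0.30 ± 0.22 for Gpatch2 after DHPG in Tsc2+/-.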
